A study of Mus musculus with 45 samples.

Results

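Embryoid bodies (EBs) lacking Smad2 were compared with WT EBs after 2 days of differentiation, on 8 of the 45 arrays of the series. The members were the 4 arrays titled as Smad2 KO d2 EBs and the 4 titled as WT d2 EBs. Smad2 KO samples were the ESC clones KT12, KT15, KT11 and KT17, and WT samples were the ESC lines CCE, CCB, CCH and CCF. All were of strain 129/Sv//Ev, so each sample was a separate line or clone, and the spread between samples is the spread between lines. ESCs of both genotypes were taken out of LIF in serum-containing medium and aggregated in hanging drops for 48 h. The labels give about 2500 EBs collected per Smad2 KO sample, against about 1250 per WT sample, so EB number, line origin and genotype cannot be told apart. Total RNA was hybridised to Illumina MouseWG-6 v2 arrays, and values are the authors' normalized log2 signal.

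Smad2 and Smad3 are closely related transcription factors that are phosphorylated by Nodal, Activin and Tgf-beta receptors, bind Smad4 and enter the nucleus. Bmp receptors act instead through Smad1, Smad5 and Smad9, whose best known targets are the Id genes. When mouse ESCs lose LIF they leave the naive state, turn down genes such as Klf4 and Tbx3, and turn on genes of the primed, post-implantation epiblast such as Fgf5 and Otx2. Trophoblast, the outer lineage of the embryo that builds the placenta, is normally separate from this path.

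One Smad2 KO sample went against its label, so each comparison and each gene named by rule is given with and without it, and further examples are given without it. The array labelled KT17 carried Smad3 at 5.29 log2 units, where the gene was not detected, against 9.81, 9.11 and 9.44 in KT12, KT15 and KT11 and 8.46, 8.61, 9.06 and 9.40 in WT. It detected 6 of 6 ESC markers (Klf4, Esrrb, Zfp42, Tcl1, Tfcp2l1, Nr5a2), with a mean of 12.4 log2 units, above the 11.6 to 11.8 of WT ESCs. Of 5 primed markers (Fgf5, Pou3f1, Sall2, Pim2, Otx2) it detected 2, with a mean of 6.81, against 7.02 to 8.64 in WT ESCs. Its profile correlated at -0.62 with the mean of the other Smad2 KO d2 arrays and best, at 0.73, with ESCs labelled Smad3 KO. Conversely, 1 of those ESC arrays, labelled CCE.2B7 and left out of that mean, correlated at -0.53 with its own group and best, at 0.56, with Smad2/3 DKO d2 EBs. It detected 5 of 5 primed markers and had a summed trophoblast signal of 1909. Smad2 itself was measured by a single probe, which read 8.97, 9.66, 9.19 and 9.15 in the Smad2 KO arrays and 9.13, 8.85, 8.38 and 8.80 in WT. That probe does not report the deletion and checks no label. As KT17 resembled ESCs, a call kept with it adds no support for a Smad2 KO difference at d2.

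The other 3 Smad2 KO arrays detected 5 of 5 primed markers, and their mean lay at 10.0 to 10.7, against 11.4 to 11.7 in WT. They detected 4 of 6 ESC markers at a mean of 8.62 to 9.07, against 3 to 4 at 7.21 to 8.39 in WT. The means of the genotypes did not overlap for either marker list. Of 5 trophoblast markers (Cdx2, Elf5, Gata3, Hand1, Plac1) 2 to 3 were detected in the 3 Smad2 KO arrays, 0 in KT17 and 0 to 1 in WT. Their summed linear signal was 1422 to 1999 in the 3 Smad2 KO arrays, 176 in KT17 and 208 to 371 in WT. Cdx2, which also acts in the primitive streak, was the brightest of them on these 3 arrays (10.19, 10.02 and 10.04). Elf5 and Hand1 were detected on no array of either genotype, so the sum is no broad trophoblast signal. Visceral endoderm markers (1 to 2 of 6 detected) summed to 703 to 1018 in the 3 Smad2 KO arrays and 521 to 637 in WT, and fibroblast markers (1 of 7 detected, 1 to 2 in WT) to 581 to 924 and 877 to 1069. Afp, Ttr, Apoa1 and Cubn, and Col1a1, Col1a2 and Col3a1, did not pass the detection filter. In these bulk samples a larger number of cells of a type and more RNA per cell cannot be told apart. Median bead signal was 125 to 169 per Smad2 KO array and 161 to 243 per WT array, and 12928 to 13833 and 12899 to 14138 probes were detected. The number of arrays limits the precision.

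**Figure D1:**
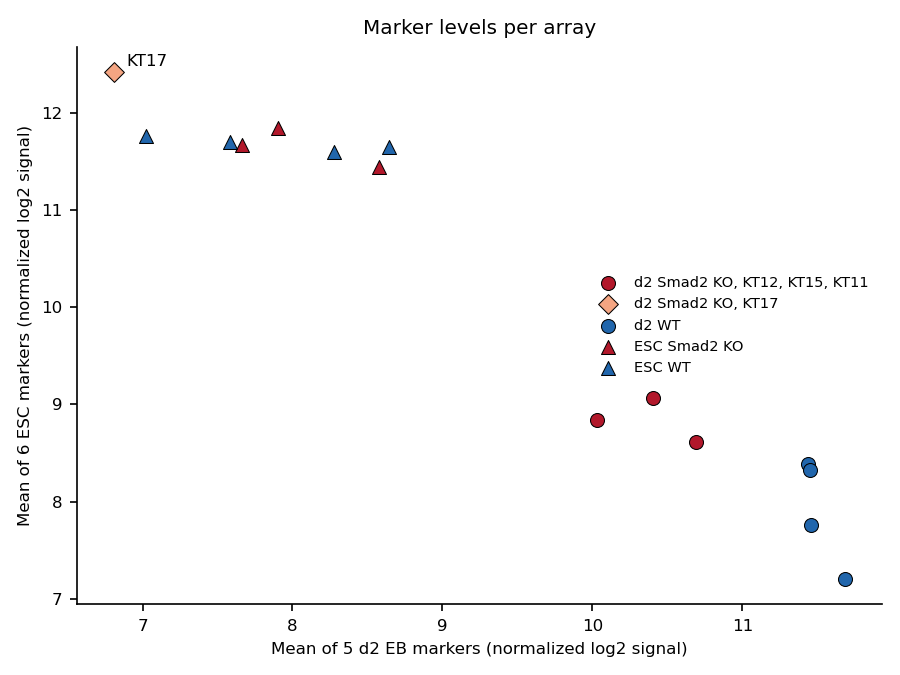
Mean normalized log2 signal of 6 ESC markers (vertical axis) against that of 5 d2 EB (primed) markers (horizontal axis), 1 point per array. The library labelled KT17 (diamond) sits at 12.4 and 6.81, next to the ESC arrays (triangles), while the other 3 Smad2 KO d2 arrays (red circles) lie at 8.62 to 9.07 and 10.0 to 10.7, next to the WT d2 arrays (blue circles).

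Without KT17, 73 genes were higher and 24 lower in Smad2 KO than in WT d2 EBs (limma, adjusted p under 0.05, 3 against 4 arrays). With KT17, 34 were higher and 16 lower. In both fits 28 genes were called higher, 82.4% of the 34 and 38.4% of the 73, and 12 were called lower, 75% of the 16 and 50% of the 24. Counting each of the 9666 tested genes by its brightest probe, 0.621% were called higher and 0.228% lower without KT17, and 0.321% and 0.155% with it. The looser rule used in the study took a fold of more than 1.5 with a p below 0.05 before adjustment, and it gave 615 higher and 504 lower genes without KT17 (5.23% and 3.32% by brightest probe), and 550 and 346 with it (4.99% and 2.66%). The counts rest on single libraries. Without KT17, leaving out KT12 as well gave 15 higher and 2 lower genes, KT15 31 and 9, KT11 50 and 7, and leaving out a WT line gave 31 and 11 (CCE), 34 and 8 (CCB), 40 and 13 (CCH) or 56 and 17 (CCF). The spread of the fit was shared with the other d2 genotypes, and leaving out the Smad2/3 DKO array of clone KT15.2D5 as well as KT17 gave 119 higher and 32 lower genes. The split between directions depends on the processing. Of the genes called without KT17, 75.3% were higher in the deposited values and 75.4% with neqc, another background correction and normalization. With median scaling of raw signals the share was 39.1%, and the median change of all probes was -0.10 log2 units. Here and below, median scaling also leaves out background correction, and the effects of the 2 steps were not told apart.

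The primed epiblast genes held 4 of the lower calls and no higher one among 15 tested members (0.228% and 0.621% of all genes). With KT17 they held only 1 lower call, Otx2 (0.155% of all genes). Fgf5, a growth factor that marks the primed epiblast, read 8.19, 8.74 and 9.26 in KT12, KT15 and KT11, against 10.67, 11.40, 11.42 and 11.28 in WT. The 2 groups did not overlap, although all arrays detected the gene. Fgf5 was lower by a log2 change of -2.46 ± 0.26 (SE; 95% interval -3.02 to -1.91, adjusted p = 0.000436). KT17 read 3.91 and with it the change was -3.67 ± 0.79 (adjusted p = 0.0612). The call without KT17 held with each of the 7 other arrays left out in turn.

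Transcription factors of the primed state followed with smaller changes. Otx2, a homeodomain factor needed for the primed state, read 10.16, 10.54, 10.55 and, in KT17, 10.10, against 11.17, 11.65, 11.62 and 11.73 in WT. Every Smad2 KO array, KT17 included, was below every WT array. The change was -1.13 ± 0.24 (adjusted p = 0.0445), and -1.20 ± 0.22 with KT17 (adjusted p = 0.0343). Pou3f1, also known as Oct6, stood at 11.04, 11.43 and 11.71, against 13.21, 12.51, 12.51 and 12.22 in WT, without overlap. It was lower by -1.22 ± 0.26 (adjusted p = 0.0445; -1.99 ± 0.54 and 0.147 with KT17, at 8.30). Nrcam, a neuronal cell adhesion molecule, was lower by -1.49 ± 0.29 (adjusted p = 0.0302; 0.056 with KT17).

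These 3 calls without KT17 were close to the threshold. The Otx2 call was lost without any 1 of the 7 arrays, that of Pou3f1 without any but CCF and that of Nrcam without any but CCE, with adjusted p up to 0.21, 0.22 and 0.182. Among the other primed genes Fgf15, a growth factor, read 6.76, 6.17 and 7.55, against 8.25, 8.08, 8.43 and 8.45 in WT, without overlap (-1.48 ± 0.38, adjusted p = 0.0967). Dnmt3b, the de novo DNA methyltransferase of the epiblast, stood at 0.37 ± 0.17 (adjusted p = 0.366) and the Ets factors Etv4 and Etv5 at 0.08 ± 0.23 and -0.03 ± 0.20. In all, 6 of 15 members were lower without overlap and 0 higher (6.36% and 10.4% of all genes). The median change of the list was -0.50, and -1.63 with KT17, beside 0.03 and 0.00 over all genes.

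General pluripotency factors showed no call among 11 genes (0.621% of all genes were called higher and 0.228% lower without KT17). Pou5f1 (Oct4), the core pluripotency factor, stood at -0.16 ± 0.18 and its partner Sox2 at 0.17 ± 0.22 (adjusted p = 0.724 and 0.769).

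**Figure D2:**
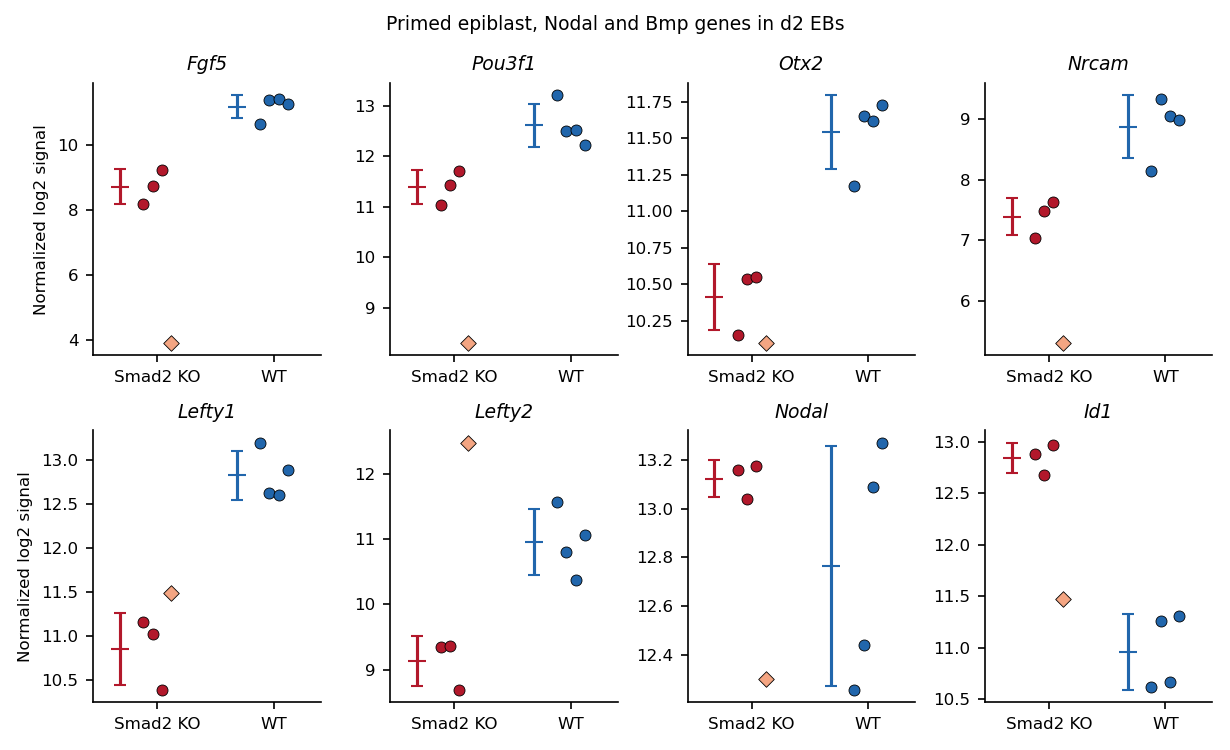
Normalized log2 signal of 8 genes in Smad2 KO (left, red circles; KT17 as a diamond) and WT d2 EBs (right, blue circles), with mean and SD of the 3 Smad2 KO arrays without KT17 and of the 4 WT arrays; axes do not start at 0. Fgf5, Pou3f1, Otx2, Nrcam, Lefty1 and Lefty2 lie lower in the 3 Smad2 KO arrays than in every WT array, Id1 lies higher, and Nodal overlaps.

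Naive pluripotency genes held 2 higher calls and 0 lower among 17 members without KT17 (0.621% and 0.228% of all genes). With KT17 they held 1 higher call, Tbx3 (0.321% of all genes). Tbx3, a T-box factor of the naive network, read 8.86, 8.10 and 8.90 in KT12, KT15 and KT11, against 5.76, 5.93, 5.93 and 6.92 in WT. It was detected on every Smad2 KO array and on no WT array, and the groups did not overlap. Set against the lowest detected signal of each WT array it was at least 3.15-fold higher (fitted log2 change 2.49 ± 0.32, adjusted p = 0.00222; 3.22 ± 0.54 and 0.0209 with KT17, at 11.53). This call held with each of the 7 arrays left out. Dppa3 (Stella), a maternal and germ cell protein, read 10.29, 10.59 and 9.74, against 6.89, 7.53, 7.95 and 8.06 in WT, also without overlap. Its change of 2.60 ± 0.46 (adjusted p = 0.0178; 1.62 ± 0.74 and 0.415 with KT17, at 6.31) lost its call without KT12, KT15, CCE or CCB (adjusted p up to 0.0894).

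The core naive factors did not pass. Esrrb, a nuclear receptor, read 11.01, 11.48 and 10.73 against 10.50, 8.34, 9.24 and 10.36 in WT (1.47 ± 0.49, adjusted p = 0.222, and 2.23 ± 0.66 and 0.191 with KT17), and its other probe changed by -0.09. Klf4, a Krüppel-like factor, was detected on none of these 7 arrays and at 10.66 in KT17 (adjusted p = 0.326 with KT17). Klf2, Klf5, Tfcp2l1 and Socs3, the last a feedback inhibitor of LIF signalling, stood at 1.19 ± 0.49, 1.30 ± 0.40, 1.22 ± 0.37 and 1.33 ± 0.37 (adjusted p = 0.133 to 0.314) without overlap. Nanog overlapped (0.45 ± 0.35, adjusted p = 0.585). Of 17 members 15 had a positive change, 11 were higher without overlap and 0 lower (10.4% and 6.36% of all genes). The list median was 1.10, and 1.70 with KT17, whose ESC markers lie at the ESC level. With median scaling it was 0.68 without KT17.

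Trophectoderm and extra-embryonic ectoderm genes held the most higher calls of any of the 26 lists, 7 of 20 members, with 0 lower (0.621% and 0.228% of all genes). With KT17 only Tfap2c of these was called. Cdx2, the homeodomain factor that founds trophectoderm and later acts in the posterior embryo, read 10.19, 10.02 and 10.04 in KT12, KT15 and KT11, against 6.29, 6.54, 7.72 and 7.85 in WT. The 3 Smad2 KO arrays were close to each other and above every WT array. The change was 2.99 ± 0.44 (adjusted p = 0.00634), and 1.80 ± 0.84 (adjusted p = 0.431) with KT17, at 5.35. It was lost without KT12 (adjusted p = 0.0515).

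Gata3 and Gata2, zinc finger factors of trophoblast, were both higher. Gata3 read 7.43, 6.71 and 7.16, against 4.73, 4.91, 5.85 and 5.23 in WT, where it was not detected, was detected on 2 of the 3 Smad2 KO arrays, and was at least 1.09-fold higher (fitted change 1.92 ± 0.29, adjusted p = 0.00634). Gata2 read 9.51, 8.99 and 8.43, against 6.35, 7.95, 6.72 and 6.81 in WT (2.02 ± 0.38, adjusted p = 0.025). Neither overlapped. The Gata3 call was lost without KT12 (adjusted p = 0.0615), and the Gata2 call without KT12, KT15, CCE, CCH or CCF (up to 0.17). With KT17 their adjusted p were 0.208 and 0.419.

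Dlx3, a homeodomain factor required in the placenta, read 8.45, 8.99 and 8.52, against 5.97, 6.11, 6.46 and 6.38 in WT, on none of whose arrays it was detected. It was at least 3.22-fold higher (2.42 ± 0.25, adjusted p = 0.000355; 1.87 ± 0.41 and 0.0636 with KT17), and the call held with each of the 7 arrays left out. Tfap2c (Ap-2 gamma), a factor of trophoblast and germ cells, read 12.04, 11.89 and 11.23, against 9.39, 7.27, 9.45 and 10.30. It was the member where KT17, at 11.75, sat with the other knockouts, and it was called in both fits (2.62 ± 0.52, adjusted p = 0.0304; 2.63 ± 0.47 and 0.0334 with KT17). All 3 of its probes were called. Left out one at a time, all arrays but CCB and CCF cost the Tfap2c call (adjusted p up to 0.177).

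Plac1, a placental gene, read 8.94, 9.58 and 7.29, against 5.42, 5.65, 5.85 and 5.30 in WT, where it was not detected. It was at least 3.11-fold higher (fitted change 3.05 ± 0.66, adjusted p = 0.0494). Rhox9, of the X-linked reproductive homeobox cluster, read 10.42, 10.82 and 9.16, against 7.01, 7.02, 7.49 and 7.82 (2.80 ± 0.56, adjusted p = 0.033). KT11 was the lowest of the 3 Smad2 KO arrays for both. Both calls held only without KT11 and were lost without any other array (up to 0.231 for Plac1 and 0.178 for Rhox9). With KT17 their adjusted p were 0.252 and 0.123.

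Of the uncalled members Prl2c3, a placental prolactin relative, read 8.31, 10.27 and 5.88, against 3.29 to 4.70 in WT, where it was not detected (at least 2.27-fold higher, adjusted p = 0.067). Rhox6 and the trophoblast factor Tead4, also not detected in WT, had bounds of at least 3.94-fold and 1.14-fold, with adjusted p = 0.0538 and 0.0925. Rhox and Prl2c genes are families of close copies, and sharing of signal between copies was not tested. Eomes, a T-box factor of trophoblast and mesoderm, overlapped (-0.45 ± 0.54, adjusted p = 0.738). In the whole list 19 of 20 changes were positive and the median was 1.35 (1.27 with KT17). Of its members 12 were higher without overlap and 0 lower (10.4% and 6.36% of all genes). With median scaling the median was 0.61 and Cdx2, Dlx3 and Tfap2c kept their calls, with the other 4 lost.

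Ap-2 factors bind the palindrome GCCNNNGGC, which was searched for on both strands of the 250 bases before each start. Promoters of genes that moved are shown here because the 2 Ap-2 genes Tfap2a and Tfap2c were both called. RefSeq sequences (GRCm38.p6) were found for 21 of the 28 named genes called higher without KT17, of which 10 held the motif, and for 12 of the 14 called lower, of which 6 did. It occurs in 13.7% of 32851 promoters and in 15.4% of 27025 genes. These shares are over all RefSeq genes and not over the genes tested here. Base composition was not matched either, so whether the motif is enriched was not tested. A match is a run of letters and not a binding site. Capitals mark the motif in Gata3 (chr2:9878601-9878850, minus strand), Cdx2 (chr5:147307250-147307499, minus), Hs3st3b1 (chr11:63922285-63922534, minus) and, among the lower genes, Fgf5 (chr5:98253934-98254183, plus).
Gata3: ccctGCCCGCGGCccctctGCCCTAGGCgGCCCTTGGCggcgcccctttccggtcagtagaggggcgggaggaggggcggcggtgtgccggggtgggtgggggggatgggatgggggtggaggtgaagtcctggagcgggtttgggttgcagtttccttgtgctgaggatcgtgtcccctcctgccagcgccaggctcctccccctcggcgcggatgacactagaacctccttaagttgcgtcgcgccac
Cdx2: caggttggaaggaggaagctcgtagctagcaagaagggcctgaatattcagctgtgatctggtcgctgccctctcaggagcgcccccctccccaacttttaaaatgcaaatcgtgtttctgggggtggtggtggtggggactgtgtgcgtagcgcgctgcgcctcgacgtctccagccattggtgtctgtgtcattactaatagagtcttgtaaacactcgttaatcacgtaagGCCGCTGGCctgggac
Hs3st3b1: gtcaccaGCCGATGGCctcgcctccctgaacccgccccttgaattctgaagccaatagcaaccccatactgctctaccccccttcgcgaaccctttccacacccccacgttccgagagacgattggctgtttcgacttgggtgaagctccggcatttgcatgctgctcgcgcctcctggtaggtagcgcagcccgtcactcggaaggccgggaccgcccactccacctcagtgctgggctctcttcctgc
Fgf5: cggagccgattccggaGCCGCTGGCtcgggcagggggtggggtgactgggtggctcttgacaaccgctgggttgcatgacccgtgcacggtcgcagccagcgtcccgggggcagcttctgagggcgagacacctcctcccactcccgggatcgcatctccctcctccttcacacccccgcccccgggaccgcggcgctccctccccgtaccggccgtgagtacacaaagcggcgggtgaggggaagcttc
Gata3 held 3 matches, at the far end of the window, and Cdx2, Hs3st3b1 and Fgf5 held 1 each. The motif of Bmp-responsive promoters, GGCGCC, was in 10 of the same 21 and 2 of the same 12 genes and in 10.8% of all genes. GTCTAGAC, a Smad palindrome, and AATCCACA, a FoxH1 motif, were in 0 of both and in 0.2% and 0.862% of all genes.

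Tfap2a (Ap-2 alpha), a factor of surface ectoderm and neural crest, had the lowest adjusted p of all probes without KT17. It read 10.06, 10.12 and 10.14 in KT12, KT15 and KT11, against 6.54, 6.49, 6.65 and 6.86 in WT, or 10.1 ± 0.0399 and 6.63 ± 0.165 (mean ± SD, n = 3 and 4). The gene was detected on all 3 Smad2 KO arrays and on no WT array. It was at least 8.8-fold higher (fitted change 3.47 ± 0.28, adjusted p = 6.16e-05), both of its probes were called, and the call held with each of the 7 arrays left out. KT17 read 5.92, below every WT array, and with it the call was lost (2.43 ± 0.70, adjusted p = 0.182).

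No other of the 13 surface ectoderm and epithelial genes was called. The simple epithelial keratins Krt8 and Krt18 read 11.86, 10.70 and 10.83 and 10.48, 9.32 and 9.36, against 8.59 to 9.41 and 7.42 to 8.48 in WT. Neither overlapped (2.02 ± 0.51 and 1.6 ± 0.50, adjusted p = 0.0932 and 0.196, and 0.254 and 0.488 with KT17). Anxa2, an annexin, stood at 2.30 ± 0.53 (0.0658), Cldn4, a tight junction claudin, at 1.65 ± 0.42 (0.0974), and Cdh1, E-cadherin, at -0.54 ± 0.39 (0.554). The median of the list was 1.6 (1.06 with KT17), 11 of 13 changes were positive, and 8 members were higher without overlap (10.4% of all genes).

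**Figure D3:**
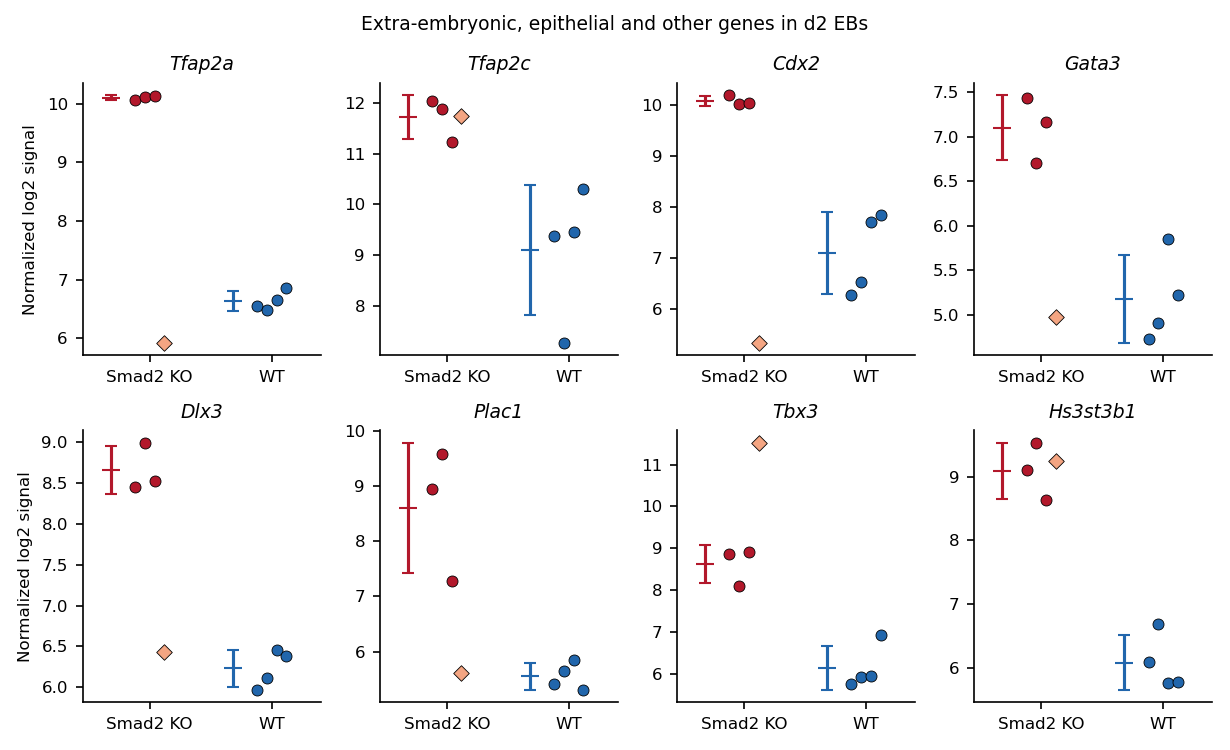
Normalized log2 signal of 8 higher genes in Smad2 KO (left, red circles; KT17 as a diamond) and WT d2 EBs (right, blue circles), with mean and SD of the 3 Smad2 KO arrays without KT17 and of the 4 WT arrays; axes do not start at 0. KT17 sits with the other knockouts for Tfap2c and Hs3st3b1, above them for Tbx3, and at or below the WT level, or close to it, for Tfap2a, Cdx2, Gata3, Dlx3 and Plac1.

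All 8 tested Bmp target genes had a positive change, and 3 were called higher and 0 lower without KT17, against 1 and 0 with it. Over all genes these shares were 0.621% and 0.228% without KT17, and 0.321% and 0.155% with it. Id1, an inhibitor of basic helix-loop-helix factors and the classic Bmp target, read 12.89, 12.68 and 12.97, against 10.61, 11.26, 10.66 and 11.31 in WT. KT17 read 11.47, above WT but below the other knockouts. The change was 1.89 ± 0.24 (adjusted p = 0.00222, with each of the 7 arrays left out too), and 1.54 ± 0.31 with KT17 (adjusted p = 0.0456). Its relative Id4 read 7.46, 7.82 and 7.37, against 5.55, 6.02, 5.39 and 5.81 in WT, where it was not detected. It was at least 1.5-fold higher (adjusted p = 0.0282; 0.195 with KT17), a call lost without any 1 of the 7 arrays (up to 0.127). Gata2, described above, is also on this list, and with KT17 Id1 was its only call.

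Id2 and Id3 stood at 1.09 ± 0.52 and 1.13 ± 0.38 (adjusted p = 0.377 and 0.224), and at 0.53 ± 0.59 and 0.76 ± 0.42 with KT17 (0.755 and 0.495). Id2 did not overlap (9.82, 9.63 and 9.72 against 7.99 to 9.04), and Id3 did (10.40, 9.52 and 10.49 against 8.43 to 9.61). Msx1, a homeobox gene downstream of Bmp, read 10.95, 11.30 and 10.93, against 7.47 to 9.11 in WT (2.48 ± 0.56, adjusted p = 0.0612), and the inhibitory Smad6, not detected in WT, had a bound of at least 1.52-fold and an adjusted p of 0.102. The list median was 1.49 (0.90 with KT17), and 7 of 8 members were higher without overlap (10.4% of all genes). With median scaling the median was 0.88 without KT17.

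In the Nodal pathway itself no ligand, receptor or coreceptor was called among 12 genes, and no Smad or Smad partner among 10. Over all genes only 0.621% were called higher and 0.228% lower without KT17. An empty list of this length is therefore no result about the pathway. Nodal read 13.16, 13.04 and 13.17, against 12.26, 12.44, 13.09 and 13.27 in WT, and overlapped (0.36 ± 0.43, adjusted p = 0.743, and 0.15 ± 0.42 and 0.915 with KT17). Tdgf1 (Cripto), the Nodal coreceptor, stood at -1.23 ± 0.50 and Gdf1, a Nodal partner ligand, at -0.73 ± 0.25 (adjusted p = 0.31 and 0.222). Of the Bmp Smads Smad1 stood at -1.11 ± 0.45 (0.31), and Foxh1, a Smad2 and Smad3 partner, at 0.79 ± 0.49 (0.491).

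Among 9 Nodal targets and feedback inhibitors the only call was Bmp7, a Bmp ligand, which was higher without KT17 (0.621% of all genes were called higher). It read 7.85, 6.94 and 7.15, against 5.92, 5.05, 6.36 and 5.69 in WT, where it was not detected, with a bound of at least 1.27-fold (adjusted p = 0.0451). With KT17 it was not called (0.0636). Of the single arrays left out, CCH alone kept the call (up to 0.221 otherwise). Lefty1, a secreted Nodal inhibitor and direct target, read 11.16, 11.02, 10.38 and, in KT17, 11.49, against 13.20, 12.62, 12.61 and 12.89 in WT. All 4 Smad2 KO arrays lay below every WT array, but the change did not pass (-1.98 ± 0.70, 95% interval -3.46 to -0.49, adjusted p = 0.244; -1.82 ± 0.64 and 0.292 with KT17). Lefty2 read 9.35, 9.36 and 8.69, against 11.58, 10.81, 10.37 and 11.07 in WT, without overlap until KT17, at 12.48, is counted (-1.82 ± 1.09, adjusted p = 0.473; -0.99 ± 1.12 with KT17). Gsc, an organizer homeobox gene, overlapped (-1.28 ± 0.48, adjusted p = 0.274).

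In the primitive streak and nascent mesoderm list 2 of 18 members were called higher and 0 lower without KT17 (0.621% and 0.228% of all genes), and none with it. Evx1, a homeobox gene of the posterior streak, read 10.96, 10.50 and 10.83, against 7.01, 7.63, 9.01 and 9.31 in WT. The lowest knockout array lay above the highest WT array, although the WT lines differed among themselves. The change was 2.53 ± 0.44 (adjusted p = 0.0156), lost without KT12, KT11 or CCB (up to 0.0894) and with KT17, at 7.56 (1.73 ± 0.64, 0.313). The other call was Cdx2. Fgf8, a streak growth factor, read 9.47, 9.51 and 9.96, against 8.85, 11.03, 11.36 and 10.98 in WT, and only CCE lay below the knockouts (-0.91 ± 0.98, adjusted p = 0.704, and -2.03 ± 1.13 and 0.503 with KT17). Axin2, a Wnt feedback gene, stood at 1.29 ± 0.49 (0.283), and Mixl1, a streak homeobox gene, was detected on no array of either genotype. The list median was 0.47 (0.14 with KT17), and 0.20 with median scaling without KT17. T was not analysed here.

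No gene of the primitive and visceral endoderm (14 tested), organizer and definitive endoderm (11), neural ectoderm (5), Wnt response (13), basement membrane (14), contractile (16), cell cycle (18), p53 (12), Atf4 stress (15) or LIF and Stat3 lists (12) was called in either direction in either fit. Calls made up only 0.621% (higher) and 0.228% (lower) of all genes without KT17, and 0.321% and 0.155% with it. Empty lists of this length therefore tell little. List medians without KT17 lay between -0.30 (Atf4 stress, 0.18 with KT17) and 0.68 (primitive and visceral endoderm, 0.76 with KT17). In the last, Sparc, an extracellular matrix protein of parietal endoderm, read 11.80, 11.85 and 11.81, against 10.08 to 11.02 in WT (1.17 ± 0.32, adjusted p = 0.118), and the basement membrane collagen Col4a2 stood at 1.28 ± 0.40 (0.186).

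Without KT17, single calls fell in the DNA methylation (1 of 10 tested), imprinted (1 of 13) and fibroblast lists (1 of 5). The glycolysis list held 0 of 14 without KT17 and 2 with it. In the germ cell (1 of 13) and Fgf and Erk lists (1 of 13) the calls were Dppa3 and Fgf5, described above. Of all genes 0.621% were called higher and 0.228% lower without KT17, and 0.321% and 0.155% with it. Counts of 1 in such short lists cannot be ranked against these shares. Gadd45b, a stress gene tied to DNA demethylation, read 8.43, 7.25, 7.15 and, in KT17, 7.88, against 5.53, 5.52, 6.15 and 5.97 in WT, where it was not detected. It was at least 1.56-fold higher and called in both fits (adjusted p = 0.0208, and 0.019 with KT17), and was lost without KT12, CCE or CCB (up to 0.118). In WT ESCs Gadd45b read 7.15 to 8.68. Peg3, a paternally expressed imprinted gene, was higher by 1.20 ± 0.25 (adjusted p = 0.0445), a call that held only without CCH and was absent with KT17, at 8.83 (0.31 ± 0.60, 0.869). Dcn, a matrix proteoglycan of fibroblasts, was at least 1.09-fold lower (0 of 3 Smad2 KO and 3 of 4 WT arrays detected it, adjusted p = 0.0445; 0.0427 with KT17), lost without any 1 of the 7 arrays (up to 0.209). The glucose transporters Slc2a1 and Slc2a3 were called higher only with KT17 (0.66 ± 0.13 and 1.07 ± 0.21, adjusted p = 0.0457 and 0.0456; 0.0559 and 0.0626 without it).

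**Figure D4:**
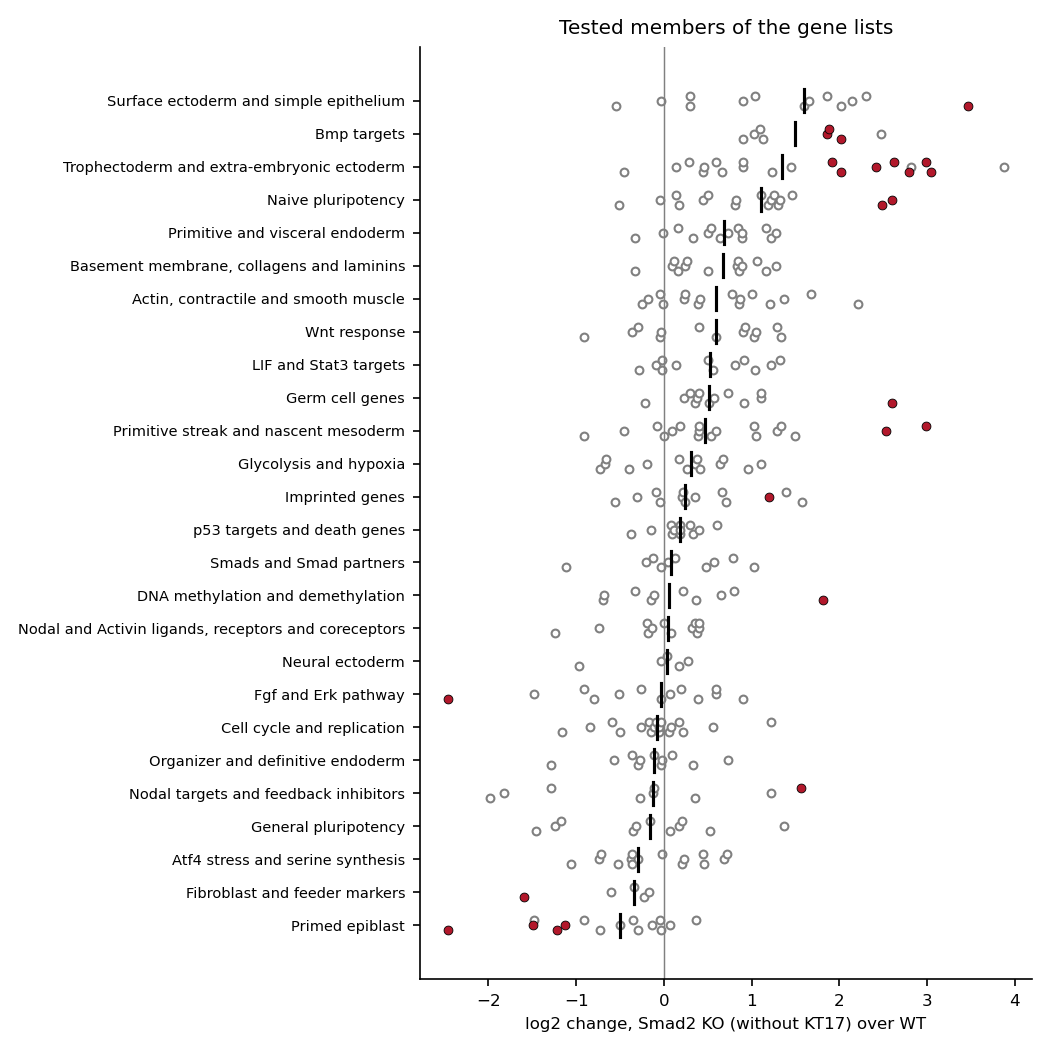
Log2 change, Smad2 KO without KT17 over WT, for every tested member of the 26 gene lists, 1 point per gene and 1 row per list in order of the median (black bar); filled points passed the test at an adjusted p under 0.05. Filled points stand to the right of 0 for trophectoderm genes (7 of 20), Bmp targets (3 of 8) and naive genes (2 of 17), and to the left for primed epiblast genes (4 of 15). Of all genes 0.621% were called higher and 0.228% lower.

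Outside the lists, Hs3st3b1, a heparan sulfate sulfotransferase, was called in both fits and with every single array left out of either. It read 9.11, 9.52, 8.64 and, in KT17, 9.24, against 6.09, 6.70, 5.77 and 5.79 in WT, where it was not detected. All 4 Smad2 KO arrays lay above every WT array. WT ESCs, which KT17 resembled, read 8.30 to 10.0. It was at least 4.35-fold higher (fitted change 3.00 ± 0.41, adjusted p = 0.00322; 3.04 ± 0.37 and 0.00817 with KT17). Its other probe changed by 0.65, and with median scaling the change was 1.90 (adjusted p = 0.055).

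The uncharacterised gene 4933402E13Rik was the other one called in both fits with every array left out. It read 8.78, 8.68, 8.24 and, in KT17, 9.21, against 6.19, 5.93, 6.60 and 7.01 (2.14 ± 0.30, adjusted p = 0.00476, and 2.30 ± 0.29 and 0.00817 with KT17). WT ESCs read 8.39 to 9.09, so an ESC-like array such as KT17 would be high here too. Its other probe changed by 1.03 without KT17. Sct, the secretin hormone, Ccn1 (Cyr61), a matricellular protein, Vgll3, a Tead cofactor, and Mme (neprilysin), a membrane peptidase, were called with every array left out of the fit without KT17. Their changes were 2.55 ± 0.37, 2.19 ± 0.31, 1.95 ± 0.25 and 1.83 ± 0.24, with Mme at least 2.1-fold higher. The other probes of Ccn1 and Mme changed by 0.80 and 0.58 and were not called. Sct read 10.56 to 11.25 in the 3 Smad2 KO arrays, against 7.45 to 9.10 in WT, without overlap. With KT17, Mme was called (2.25 ± 0.35, adjusted p = 0.0177), and Sct, Ccn1 and Vgll3 were not (0.207, 0.342 and 0.0871).

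Elf3, an epithelial Ets factor, read 10.17, 10.35, 9.95 and, in KT17, 10.72, against 7.69, 7.94, 8.55 and 8.30 in WT. In WT ESCs Elf3 read 8.68 to 9.40. It was called in both fits (2.03 ± 0.33, adjusted p = 0.0106; 2.18 ± 0.31 and 0.0145 with KT17) and lost without KT12 or KT15 (up to 0.0706). Of its 3 probes 2 were called without KT17, and the lowest change was 0.42. The Wnt ligand genes Wnt6 and Wnt4, not detected in WT, were at least 1.63-fold and 1.82-fold higher (adjusted p = 0.0334 and 0.0271). Wnt6 was called with KT17 too (0.0334) and Wnt4 was not (0.191), and without KT17 both were lost without any 1 array (up to 0.182 and 0.175). Of the 3 Wnt6 probes 2 were called, with a lowest change of 0.20, and of the 2 Wnt4 probes 1 was. Bcam, a laminin receptor, Stard8 and Cep112, a centrosomal protein, were called in both fits, with changes of 1.18 ± 0.23 for Bcam and 1.66 ± 0.34 for Stard8 and, against WT arrays that did not detect it, at least 1.53-fold for Cep112. Their adjusted p were 0.0271, 0.0365 and 0.025 (0.0341, 0.0419 and 0.0457 with KT17), each call lost without several single arrays (up to 0.194). WT ESCs read Bcam at 8.42 to 9.26 and Cep112 at 6.99 to 8.39, and KT17 read 9.21 and 7.07.

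On the lower side, Stk39, a stress kinase that regulates ion cotransporters, read 8.49, 8.81 and 9.05, against 10.30, 10.47, 9.84 and 9.77 in WT. The change was -1.31 ± 0.20 (adjusted p = 0.00699; -1.84 ± 0.37 and 0.0481 with KT17), lost without KT12 (0.0706). Ntrk2, the receptor of brain-derived neurotrophic factor, read 5.87, 6.60 and 6.39, where it was not detected, against 8.29, 8.31, 7.55 and 7.26, and was at least 1.83-fold lower (adjusted p = 0.0122; 0.017 with KT17), lost without KT12 (0.0894). Etv1, an Ets factor, was called in both fits (-1.12 ± 0.20, adjusted p = 0.0157; -1.40 ± 0.25 and 0.0329 with KT17) and lost without KT12 or KT11 (up to 0.105). Satb1, a chromatin organizer, and Cbln4, a secreted cerebellin, were also called in both (-0.90 ± 0.18 and -1.56 ± 0.32, adjusted p = 0.0282 and 0.0362; 0.0334 and 0.0465 with KT17), each lost without several arrays (up to 0.138 and 0.19).

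Called lower only without KT17 were Mmp25, a membrane-type metalloproteinase (-1.33 ± 0.22, adjusted p = 0.013, lost without KT11 at 0.0709), Slc27a2, a fatty acid transporter (-1.34 ± 0.23, 0.0162), Zcchc24 (-1.42 ± 0.27, 0.026) and Tnfsf11 (Rankl), a cytokine (at least 1.61-fold, 0.025). The last 3 were lost without several arrays (up to 0.104, 0.177 and 0.126). With KT17 the adjusted p of these 4 genes were 0.0782, 0.053, 0.430 and 0.233. Jph1, a junctional membrane protein, Bcl11a, a zinc finger repressor, and Zfhx3, a zinc finger homeobox factor, were called only with KT17 (-1.53 ± 0.31, -1.34 ± 0.27 and -1.27 ± 0.25, adjusted p = 0.0457, 0.0457 and 0.0456), with 0.0655, 0.0538 and 0.0608 without it. Of the 42 named genes called without KT17, 11 held with each of the 7 arrays left out, 5 held with none, 24 kept their call with median scaling, and all kept their direction.

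**Figure D5:**
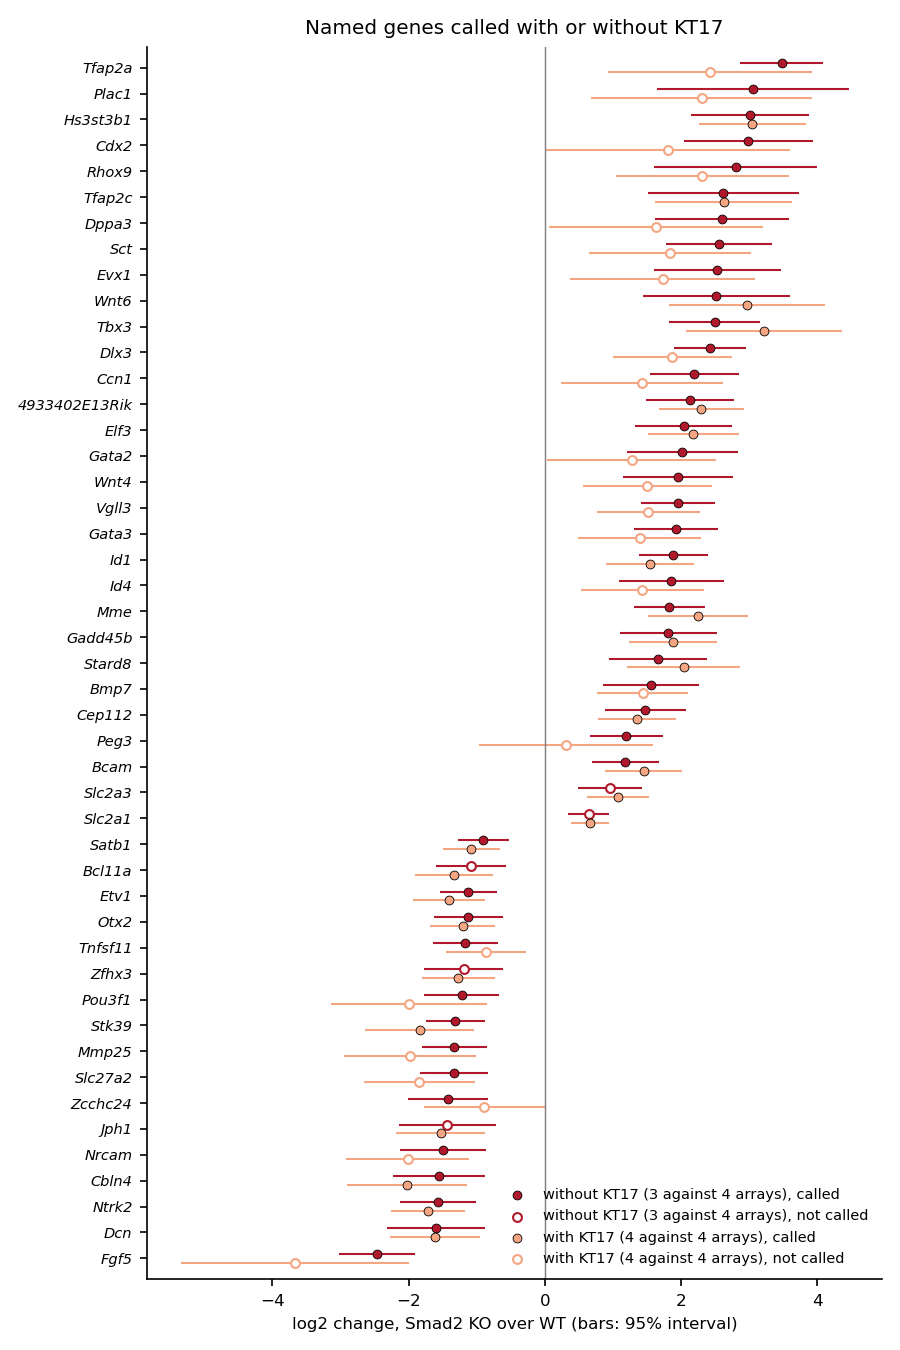
Log2 change, Smad2 KO over WT, with 95% intervals, for the named genes called in at least 1 fit, without KT17 (dark, 3 against 4 arrays) above and with KT17 (light, 4 against 4 arrays) below for each gene; filled points passed the test. Intervals widen with KT17 for Tfap2a, Cdx2 and Fgf5, and stay similar for Hs3st3b1, Tfap2c and Otx2.

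Whether these differences were already there before differentiation was asked by setting the d2 difference against that between Smad2 KO and WT ESCs. Lines present at both stages were not paired in this fit. The Smad2 KO clones were KT12, KT15 and KT17 in ESCs, and KT12, KT15 and KT11 at d2 without KT17, which limits these calls. Without KT17 the d2 difference minus the ESC difference passed the test with a positive sign for 3 genes and a negative sign for 2 (0.031% and 0.0207% of 9666 genes), and with it for 1 and 2 (0.0103% and 0.0207%). Tfap2a read 7.62, 6.48 and 6.17 in ESCs of the Smad2 KO clones KT12, KT15 and KT17 and 6.84, 6.50, 6.21 and 6.70 in WT ESCs, of which 1 Smad2 KO array and 0 WT arrays detected it, so its high level was seen in the 3 knockout arrays at d2 and not in ESCs (fitted difference of changes 3.28 ± 0.38, adjusted p = 0.00447; 2.23 ± 1.05 and 0.601 with KT17). Readings below detection enter this fitted value, as they do for Dlx6 and Dcn, which no ESC array of these genotypes detected. Hs3st3b1 had the other course, with 8.44, 7.59 and 8.16 in Smad2 KO ESCs and 9.60, 10.00, 8.30 and 9.78 in WT ESCs. Its d2 level in knockouts lay within the range of WT ESCs, and that of WT d2 EBs lay below (4.36 ± 0.53, adjusted p = 0.00447; 4.40 ± 0.50 and 0.00582 with KT17). Dcn was the third named gene (-2.11 ± 0.32, adjusted p = 0.0352, and -2.13 ± 0.31 and 0.0341 with KT17).

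The remaining calls, Dlx6 and Lrig3, were chosen after their values were seen. Dlx6, a homeodomain factor, read 7.66, 7.43 and 7.09 in Smad2 KO and 6.02, 5.86, 6.14 and 5.89 in WT d2 EBs, against 5.54 to 5.87 and 5.61 to 5.96 in ESCs. Lrig3, a membrane protein with leucine-rich repeats, read 10.50, 10.80 and 10.58 in Smad2 KO and 11.83, 11.29, 11.48 and 11.74 in WT d2 EBs, and in ESCs 11.23, 11.04 and 10.83 in Smad2 KO against 10.56, 10.27, 10.48 and 10.45 in WT. The difference of changes was 1.56 ± 0.24 for Dlx6 and -1.56 ± 0.24 for Lrig3 (adjusted p = 0.0352 for both).

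For some genes the ESC values of the genotypes already differed in the same direction without passing the test. Plac1 stood at 9.66, 7.41 and 9.03 in Smad2 KO ESCs, against 4.60, 6.19, 5.90 and 6.25 in WT ESCs, and was detected on 2 of 3 and 0 of 4 arrays (adjusted p = 0.249). Id1 (1.47 ± 0.37) and Lefty1 (-1.73 ± 0.41) had adjusted p = 0.244 and 0.228 in ESCs. Gata3, Dlx3 and Id4 were detected on 2 of 3 Smad2 KO and 0 of 4 WT ESC arrays. Their ESC changes were 1.08, 0.90 and 0.79 (adjusted p = 0.551, 0.565 and 0.551). Id2, Gata2 and Elf3 stood at 1.93, 1.34 and 0.88 in ESCs (0.314, 0.627 and 0.314). Evx1, higher at d2, went the other way in ESCs (-0.61, 0.866). Fgf5 and Cdx2 were detected on no ESC array of either genotype, so a difference before differentiation could not be measured for them.

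Against the other single knockout, Smad2 KO EBs differed from Smad3 KO d2 EBs (4 arrays, clones made from line CCE) in 585 genes higher and 182 lower without KT17, and in 203 and 74 with it (5.42% and 1.43% of genes by brightest probe without KT17, 1.82% and 0.621% with it). This contrast shares its Smad2 KO arrays with the comparison above. The labels give about 1250 EBs per Smad3 KO sample, against about 2500 per Smad2 KO sample. EB number, line origin and genotype therefore cannot be told apart here either. Smad3 averaged 9.45 in the 3 Smad2 KO arrays and was not detected in Smad3 KO (at least 4.81-fold, adjusted p = 0.00178, and 0.0512 with KT17). KT17 was left out partly for its lack of Smad3 signal, so the Smad3 result without it is no test of the labels. Tfap2a, Cdx2, Evx1 and Dppa3 were not detected on any Smad3 KO array either. They were at least 7.56-fold, 7.45-fold, 11.9-fold and 8.09-fold higher in the 3 Smad2 KO arrays (adjusted p = 1.31e-05, 0.000182, 0.00024 and 0.000182). With KT17 the bounds were 3.66-fold, 3.28-fold, 6.85-fold and 4.12-fold, and the Cdx2 call was lost (0.0495, 0.089, 0.0234 and 0.0384). Id1 stood 1.81 ± 0.24 above the Smad3 KO (0.00059; 1.47 ± 0.31 and 0.0246 with KT17). Fgf5, Pou3f1 and Otx2 stood below it by -2.06 ± 0.26, -1.84 ± 0.26 and -1.02 ± 0.24 (0.000494, 0.000922 and 0.0209), and all 3 were called with KT17 too (0.0462, 0.0228 and 0.0217). Nrcam, at 7.39 in Smad2 KO and 7.60 in Smad3 KO, differed by -0.21 ± 0.29 (95% interval -0.84 to 0.42, adjusted p = 0.72), and Slc27a2 by -0.27 ± 0.23 (-0.77 to 0.22, 0.531). With KT17 these were -0.73 ± 0.42 and -0.78 ± 0.38 (0.41 and 0.324).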

How the data were processed

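Total RNA of 45 samples in 12 groups was hybridised to Illumina MouseWG-6 v2 bead arrays. Per the labels and methods, the authors exported bead signals from GenomeStudio 2009.2, corrected background and quantile normalised them, and deposited the normalized values on a log2 scale, used here as given. The exact settings are not given in the sources used here. The deposited bead intensities (raw signal, not normalized by the authors) and the detection p-value of each probe were used for detection (p under 0.01) and for alternatives. The series matrix holds identical values and was not used.

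Probes detected on at least 3 of 45 arrays were tested (16896 of 45281, 9666 genes). The platform annotation gave 34885 probes one symbol, of which 34807 are in RefSeq, while 18 probes had more than 1 symbol and 10378 had none. A gene with several probes was represented by its brightest one, except in the counts of all genes, which took any probe. limma 3.58.1 (R 4.3.3; lmFit and eBayes) was fitted to the 16 d2 arrays of 4 genotypes, 15 without KT17, with Benjamini-Hochberg adjustment over all tested probes. All tests were two-sided. In the d2 fits a difference was set against a spread pooled over all 4 genotypes. The Smad3 KO arrays are labelled as clones of line CCE and the Smad2/3 DKO arrays as clones of KT15. The pooled spread is therefore not that between separate Smad2 KO and WT lines alone. The d2 and ESC differences were compared as an interaction over 14 arrays, 15 with KT17.

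Named genes were members of 26 lists that passed the test in either fit, outside them the 8 higher and 8 lower called genes of each fit with the largest change, no overlap between groups and detection on every array of the higher group, and a set of pathway genes named whether called or not, 59 in all. Other list members are examples chosen after their values were seen. Members and lists were chosen with earlier results of these data known. Where a group had no array with detection, "at least N-fold" is the mean of the brighter group against the dimmer group's mean of, per array, the higher of the lowest detected signal and the probe's own. Alternatives were neqc (offset 16) or median scaling of raw signals, the latter without background correction. Further ones were other filters, the compared arrays alone, array weights, a mean-variance trend, a replicate block and leaving out each array. On data simulated for the comparison without KT17 (200 of 16896 probes changed), 8.96%, 62.7% and 90.9% of 1.5-fold, 2-fold and 4-fold changes were recovered, and 5 unchanged probes were called. Figures were drawn with Python 3.11.15, pandas 2.3.3 and matplotlib 3.10.9.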

Additional observations from a re-analysis of the deposited data

Results flagged for a closer look

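The named genes were screened for outlying arrays in the Smad2 KO and in the WT group. In 15 of 118 groups of 4 arrays (12.7%) the highest or lowest array stood far from the other 3 by Dixon's criterion. Chance meets it in about 1 of 20 groups of unselected genes. Many of these genes were named because they were called once KT17 was left out, which favours genes where KT17 stands apart. The share therefore cannot be set against chance. KT17 was that array in 12 of the 15. It stood below the other Smad2 KO arrays for Smad3 (5.29), Nodal (12.3), Fgf8 (5.18), Id2 (7.47), Cdx2 (5.35), Evx1 (7.56), Peg3 (8.83), Tfap2a (5.92), Ccn1 (5.98) and Slc27a2 (7.21), and above them for Klf4 (10.7) and Tnfsf11 (7.71), all in log2 signal. Among WT lines, CCE was low for Fgf8 (8.85, others 10.98 to 11.36) and high for Etv1 (10.4, others 9.65 to 9.77), and CCF was high for Tbx3 (6.92, others 5.76 to 5.93).

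The Smad2 KO difference changed between ESCs and d2 EBs, by the interaction test without KT17, for Hs3st3b1 (4.36), Tfap2a (3.28), Dlx6 (1.56), Lrig3 (-1.56) and Dcn (-2.11), in log2 units of the d2 difference minus the ESC difference. No ESC array of these genotypes detected Dlx6 or Dcn, and 1 of 7 detected Tfap2a.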

How the results depend on the processing

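Counts of called genes moved with most choices, and are given as higher and lower. With KT17 (34 and 16), median scaling gave 6 and 29, no filter on dim probes 13 and 6, the compared arrays alone 9 and 4, array weights 411 and 275, and the replicate block 22 higher. Without KT17 (73 and 24), they gave 18 higher (median scaling), 40 and 10 (no filter), 37 higher (detected on at least 4 compared arrays), 192 and 65 (compared arrays alone), 611 and 508 (array weights) and 15 lower (replicate block). By the study's threshold, with KT17 (550 and 346), median scaling gave 183 and 532, no filter 885 and 706, the stricter filter 364 higher and array weights 698 lower. Without KT17 (615 and 504) these were 228 higher, 1027 and 1009, and 770 lower for array weights.

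With KT17 kept in the fit, leaving out 1 other array gave 2 to 19 higher and 0 to 14 lower genes. By the study's threshold these were 424 to 666 and 265 to 452. Leaving out KT17 itself gave 73 and 24. Without KT17, leaving out 1 more array gave 15 to 56 and 2 to 17 (472 to 674 and 227 to 668). Leaving out KT17 moved the interaction count to 5 genes, against 3 with it, and the count against Smad3 KO to 767, against 277. Leaving out the DKO clone too gave 119 higher genes.

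With median scaling 17.1% of calls with KT17 were higher, against 68% in the deposited values, and the median of all probes was -0.14. With KT17 in the fit, directions turned among named genes only for Smad3 (0.41 with array weights), and when 1 array was left out for Smad3 (-0.93 to 0.57, positive without KT17), Nodal (-0.017 to 0.36, negative without CCE) and Peg3 (-0.050 to 1.20, negative without KT12). Same-numbered samples did not pair (correlations -0.116 to 0.216), and the block cost 11 of 59 named genes their call with KT17 and 13 without. neqc kept the call or its absence for 55 and 58 of 59. The causes were not tested. Signals near background and 3 to 4 clones per group limit what could be called.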
